A study of Homo sapiens with 2 samples.

Results

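The genes of polyunsaturated fatty acid (PUFA) synthesis and phospholipid remodelling were examined in HepG2 cells, a human hepatocellular carcinoma line, by RNA sequencing. The set was defined by a list of 10 gene symbols and uses no threshold on measured values, and all 10 were found among the 60623 gene entries of the count tables. It holds the fatty acid desaturases FADS1, FADS2 and FADS3, the elongases ELOVL2 and ELOVL5, the lysophospholipid acyltransferases LPCAT3, MBOAT7, LPCAT1 and LPCAT2, and the methyltransferase PEMT. The comparison addressed how 9-cis-RA, a retinoic acid isomer used to activate RXR receptors, alters transcript levels in fat-loaded liver cells. The compound acts on all RXR receptors and on RAR receptors, so the values cannot be assigned to RXRα alone. Cells of both groups were labelled WT and received 1 mM free fatty acids (FFA; oleic and palmitic acid bound to albumin) for 24 h. The FFA + 9-cis-RA group also received 10 μM 9-cis-RA for 24 h, and the DMSO solvent was matched between groups. Whether both 24 h periods ran together or in sequence is not clear from the sources used here. Each group had 1 library, so there was no replicate error, no test could be made and no p-value is given. HepG2 is a tumour line grown alone in culture, and no library without FFA was analysed here.

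PUFA synthesis converts the essential dietary fatty acids, linoleic and α-linolenic acid, into longer and less saturated products such as arachidonic, eicosapentaenoic and docosahexaenoic acid. Desaturases of the endoplasmic reticulum add double bonds, and elongases add carbons between these steps. The products enter membrane phospholipids through the Lands cycle, in which a phospholipase removes an acyl chain and an acyltransferase puts another in its place. The liver is a main site of both processes, and PEMT gives it a second route to phosphatidylcholine beside the choline pathway.

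The FFA library held 60821539 fragment counts on genes and the FFA + 9-cis-RA library 57669670. Of the 10 genes, 9 had at least 10 counts over both libraries and were compared. LPCAT2 had 0 counts in each. As a check of the treatment label, the retinoid-induced gene CYP26A1 had 4 and 709 counts, RARB 6 and 46, and DHRS3 1126 and 1999 in the FFA and FFA + 9-cis-RA libraries. The 7 hepatocyte-derived markers summed to 14186 TPM (counts divided by gene length and scaled to the same total in each library) with FFA and 12089 TPM with FFA + 9-cis-RA. Of them 3 were higher and 4 lower. AFP had a log2 fold change of -0.99, ALB of -0.70, TTR of -0.27 and HNF4A of -0.14, while APOA1, APOB and SERPINA1 lay between 0.036 and 0.050. TTR had 341 counts with FFA and 278 with FFA + 9-cis-RA, the fewest of the 7, so the sum says little about it. The 10 markers of other cell types summed to 20.9 and 15.0 TPM, of which the actin gene ACTA2 gave 19.0 and 13.4 TPM, and of the 7 that could be compared 1 was higher and 6 were lower. The leukocyte marker PTPRC had 0 counts, and the collagen genes COL1A1 and COL1A2 had at most 3. The others were counted in both libraries. VWF had 184 counts with FFA and 118 with FFA + 9-cis-RA, PECAM1 52 and 29, and PDGFRB 37 and 21. For CD163 the counts were 34 and 24, for STAB2 11 and 3, and for CD68 5 and 15. What these markers contribute to the values of the set was not tested. In bulk RNA, fewer cells of a kind and less RNA per cell cannot be told apart.

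Upstream sequences of 9 of the 10 genes were found in RefSeq (GRCh38.p14), in 12 windows because FADS2 has 2 listed starts and PEMT 3. LPCAT2 was not matched. The 250 bases before the start are shown for LPCAT3, ELOVL5 and ELOVL2, whose transcripts differed most between the libraries. Each is written 5′ to 3′ on the strand of the gene. Capitals mark CCAAT (the CCAAT box), GGGCGG (the GC box) and CACGTG (the E-box), read on both strands, so that ATTGG and CCGCCC are the same boxes on the other strand.
LPCAT3, chromosome 12, 7018477 to 7018726, minus strand: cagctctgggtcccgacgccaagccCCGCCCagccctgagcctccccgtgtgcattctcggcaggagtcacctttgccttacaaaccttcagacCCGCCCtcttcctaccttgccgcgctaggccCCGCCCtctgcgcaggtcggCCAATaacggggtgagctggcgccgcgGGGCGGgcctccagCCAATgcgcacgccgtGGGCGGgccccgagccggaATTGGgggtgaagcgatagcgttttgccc
ELOVL5, chromosome 6, 53348951 to 53349200, minus strand: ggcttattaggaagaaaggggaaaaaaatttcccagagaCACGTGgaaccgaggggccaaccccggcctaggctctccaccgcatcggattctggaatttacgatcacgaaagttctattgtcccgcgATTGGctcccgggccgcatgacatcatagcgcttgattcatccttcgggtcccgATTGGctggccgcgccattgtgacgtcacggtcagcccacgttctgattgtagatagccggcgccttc
ELOVL2, chromosome 6, 11044306 to 11044555, minus strand: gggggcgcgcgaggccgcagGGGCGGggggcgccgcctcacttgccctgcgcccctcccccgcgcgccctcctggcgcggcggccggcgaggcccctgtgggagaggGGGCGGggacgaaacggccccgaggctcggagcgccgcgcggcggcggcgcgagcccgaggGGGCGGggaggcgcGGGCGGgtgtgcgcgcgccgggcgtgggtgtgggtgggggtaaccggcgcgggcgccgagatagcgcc
The LPCAT3 window held 3 CCAAT boxes and 5 GC boxes. The ELOVL5 window held 2 CCAAT boxes, 1 E-box and no GC box. It lies before the RefSeq start, but most of it is inside the gene span used for counting, whose 5′ end is at 53349179. The ELOVL2 window had a GC content of 84.8%, against a median of 58% over all 35116 windows, and held 4 GC boxes. A CCAAT box was present in 32.0% of all windows, a GC box in 42.6% and an E-box in 6.34%. The nuclear receptor half-site AGGTCA was present in 12.1% of all windows and in 0 of the 12 windows of these genes. Its variant GGGTCA was present in 12.1% of all windows and in 5 of the 12, which belong to FADS2, FADS3 and PEMT. The 2 FADS2 windows overlap and hold the same copy, 28 and 229 bases before their starts, and PEMT counts with more than 1 window. The 5 windows are therefore not separate genes or sites. These letters describe the windows and were not tested as binding sites.

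LPCAT3 had the highest log2 fold change of the set. It encodes the acyltransferase that places linoleoyl and arachidonoyl chains into phosphatidylcholine and phosphatidylethanolamine, and it is a known target of the LXR receptors, which pair with RXR. Its gene (ENSG00000111684) lies on chromosome 12 from 6976185 to 7018477 in GRCh38. The normalized count, scaled by median-of-ratios size factors, was 5352 with FFA and 11505 with FFA + 9-cis-RA. The log2 fold change was therefore 1.10, which is 2.15-fold (95% counting interval 2.08 to 2.22). These intervals are exact Clopper-Pearson intervals that cover counting error and compare the 2 libraries, not the conditions. Among the 8592 genes with a mean normalized count of at least 1000, 11 had a higher log2 fold change than LPCAT3. The exons of EMG1 on the opposite strand cover 66.0% of the LPCAT3 exon bases. EMG1, a ribosome biogenesis gene, had 5214 counts with FFA and 3790 with FFA + 9-cis-RA, a log2 fold change of -0.43, so the overlapping genes differed in opposite directions in these strand-specific counts.

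Above a log2 fold change of 1 there was 1 of the 9 compared genes, LPCAT3, against 3.37% of all 20431 compared genes. Below -1 there were 0 of 9, against 4.9% of all genes. All of the set but PEMT and LPCAT2 were among the 8592 well-counted genes, of which 0.198% were above 1 and 0.524% below -1. LPCAT3 also had its whole interval above 1, as did 0.387% of all genes and 0.151% of well-counted genes, while the whole interval lay below -1 for 0 of the 9, against 0.93% and 0.477%. The counting interval lay above 0 for 3 genes (LPCAT3, ELOVL5 and FADS2), against 22.5% of all and 35.8% of well-counted genes. It lay below 0 for 3 genes (ELOVL2, FADS1 and LPCAT1), against 25.7% and 35.4%. It held 0 for FADS3, MBOAT7 and PEMT. The median log2 fold change of the 9 genes was -0.013, against -0.020 over all compared genes. With 9 genes these shares rest on small numbers.

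**Figure D1:**
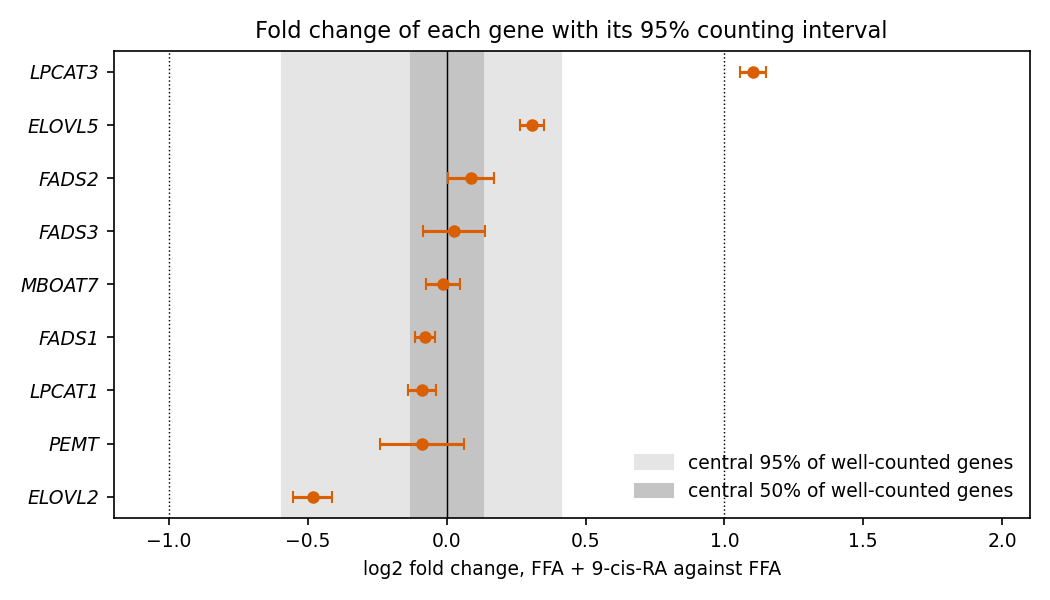
The log2 fold change of FFA + 9-cis-RA against FFA (x axis) is plotted for the 9 compared genes (y axis) with bars for the 95% counting interval, over bands for the central 50% and 95% of the 8592 genes with a mean normalized count of at least 1000; dotted lines mark -1 and 1. LPCAT3 at 1.10 lies beyond the wider band, which runs from -0.59 to 0.41, while ELOVL2 and ELOVL5 lie inside it but outside the narrower band, and the other 6 genes lie within the narrower band from -0.13 to 0.13.

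The elongases differed in opposite directions. ELOVL5, on chromosome 6 from 53267398 to 53349179, encodes the enzyme that extends the shorter PUFA substrates. Its normalized count was 7661 with FFA and 9481 with FFA + 9-cis-RA, a log2 fold change of 0.31 (95% interval 0.26 to 0.35), or 23.8% higher. Of the well-counted genes defined above, 5.97% had a higher value.
ELOVL2, on the same chromosome from 10980759 to 11044305, encodes the enzyme of the later elongation steps toward docosahexaenoic acid. Its normalized count was 3958 with FFA and 2834 with FFA + 9-cis-RA. The log2 fold change was -0.48 (95% interval -0.55 to -0.41), and 3.84% of well-counted genes had a lower value. The ratio of ELOVL2 to ELOVL5 per length was 0.494 with FFA and 0.286 with FFA + 9-cis-RA. This change of -0.79 on the log2 scale (95% counting interval -0.87 to -0.71) is a ratio within each library and does not depend on the scaling between libraries.

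The desaturases differed little. They lie close together on chromosome 11, FADS1 from 61799627 to 61829318, FADS2 from 61792980 to 61867354 and FADS3 from 61873519 to 61892051. FADS1 lies inside the span of FADS2 on the opposite strand. FADS2 encodes the enzyme that begins PUFA synthesis, and its normalized count was 2308 with FFA and 2450 with FFA + 9-cis-RA. Its log2 fold change was 0.086 (95% interval 0.0039 to 0.17). FADS1, the desaturase that forms arachidonic and eicosapentaenoic acid, had normalized counts of 13417 and 12707 and a log2 fold change of -0.078 (95% interval -0.11 to -0.043). FADS3, which acts on sphingoid bases, had 1289 and 1313 normalized counts. Its log2 fold change was 0.027, and the interval from -0.085 to 0.14 held 0.
All 3 values lay within the central 50% of well-counted genes. The ratio of FADS1 to FADS2 per length was 5.998 with FFA and 5.35 with FFA + 9-cis-RA, a change of -0.16 on the log2 scale (95% counting interval -0.25 to -0.076). For FADS3 against FADS2 the ratio was 0.936 and 0.898, and the interval of its change, -0.20 to 0.078, held 0. Both ratios depend on the length assigned to each gene, while their changes do not. Exons of FADS1 and FADS2 overlap on opposite strands over 4.79% and 4.64% of their bases.

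The acyltransferases other than LPCAT3 also differed little. MBOAT7, on chromosome 19 from 54173412 to 54189882, encodes the enzyme that places arachidonoyl chains into phosphatidylinositol. Its normalized count was 4223 with FFA and 4185 with FFA + 9-cis-RA, a log2 fold change of -0.013 (95% interval -0.075 to 0.049). LPCAT1, on chromosome 5 from 1456480 to 1523962, encodes an acyltransferase that favours saturated chains and is known from lung surfactant. Its normalized counts were 6916 and 6503, a log2 fold change of -0.089 (95% interval -0.14 to -0.040).
LPCAT2, which also makes platelet-activating factor, lies on chromosome 16 from 55509072 to 55586666. It was listed at 0 counts in both libraries. A fixed limit of 3 counts was used, or 0.0194 TPM with FFA and 0.0211 TPM with FFA + 9-cis-RA. The exact 95% counting interval reached 0.0239 and 0.0259 TPM. No fold change is given for it. INSIG1, a gene that liver cells are known to express, was also listed at 0 in both libraries with no exon overlap on its strand, so a listed 0 may not mean that a transcript was absent, and the limit holds for counted fragments.
Within each library, LPCAT3 was 1.43 times MBOAT7 per length with FFA and 3.10 times with FFA + 9-cis-RA. The ratio changed by 1.12 on the log2 scale (95% counting interval 1.04 to 1.19). Against LPCAT1 the ratio of LPCAT3 was 1.07 and 2.44, a change of 1.19 (95% counting interval 1.13 to 1.26).

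PEMT, on chromosome 17 from 17505563 to 17591708, methylates phosphatidylethanolamine to phosphatidylcholine. Its normalized count was 750 with FFA and 705 with FFA + 9-cis-RA. The log2 fold change was -0.089, and the interval from -0.24 to 0.061 held 0, which was the widest interval of the 9 genes. The ratio of LPCAT3 to PEMT per length was 2.62 and 5.98, a change of 1.19 on the log2 scale (95% counting interval 1.04 to 1.35).
For 6 of the 9 genes, namely FADS1, FADS2, FADS3, MBOAT7, LPCAT1 and PEMT, the log2 fold change was within 0.2 of 0. The direction of FADS1, LPCAT1, MBOAT7 and PEMT turned when TPM was used as the scale between libraries, where their values were 0.012, 0.0013, 0.077 and 0.00084. That scale moved the median of all genes by 0.090.

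**Figure D2:**
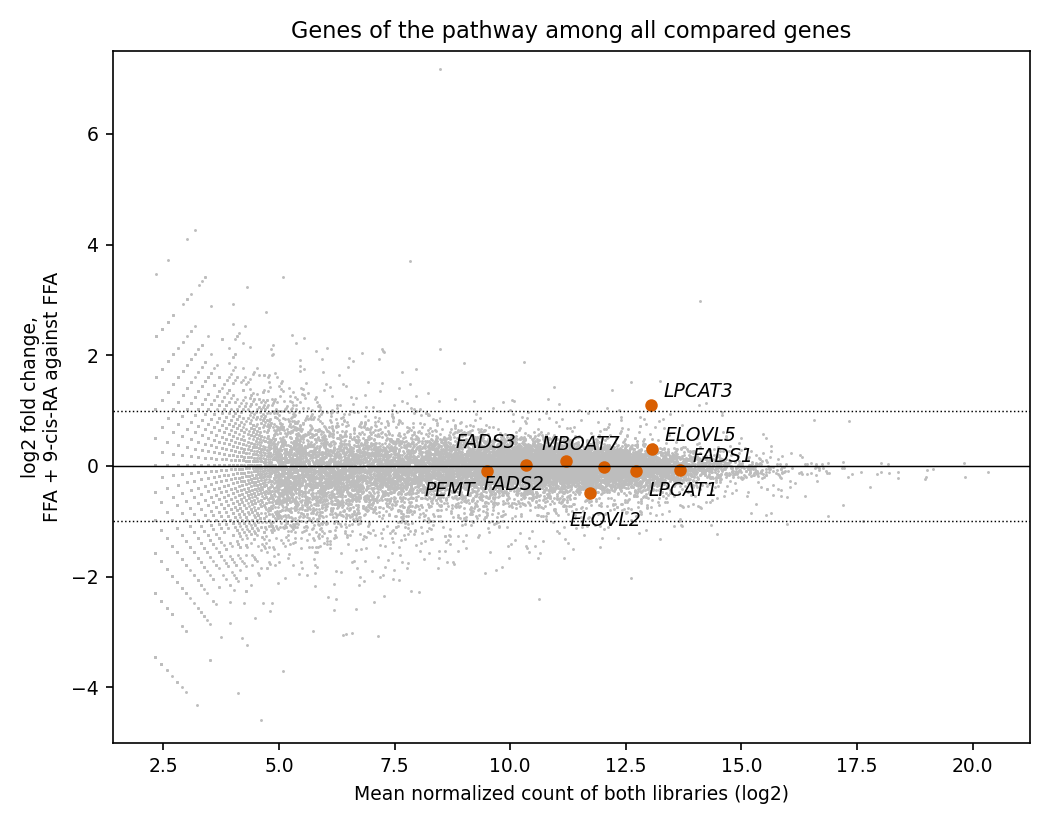
The log2 fold change (y axis) of all 20431 compared genes is plotted in grey against the log2 of the mean normalized count of both libraries (x axis), with the 9 compared genes of the set in orange and dotted lines at -1 and 1. The grey cloud narrows as counts grow, and LPCAT3 at 1.10 lies near its upper edge for genes of similar counts, with 11 well-counted genes higher, while the genes within 0.2 of 0 lie in its centre.

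Levels of different genes were compared per length, as TPM. In the FFA library ELOVL5 had the highest level at 96.7 TPM (95% counting interval 94.5 to 98.8), followed by FADS1 at 63.1 TPM, LPCAT3 at 54.9 TPM and LPCAT1 at 51.4 TPM. ELOVL2 followed at 47.7 TPM, MBOAT7 at 38.4 TPM and PEMT at 21.0 TPM. FADS2 at 10.5 TPM (10.1 to 11.0) and FADS3 at 9.85 TPM (9.32 to 10.4) were the lowest above 0, and their intervals overlapped.
In the FFA + 9-cis-RA library ELOVL5 at 127 TPM (125 to 130) and LPCAT3 at 126 TPM (123 to 128) were not separated by their intervals. FADS1 came next at 63.6 TPM and LPCAT1 at 51.4 TPM. MBOAT7 at 40.5 TPM (39.3 to 41.8) stood above ELOVL2 at 36.4 TPM (35.1 to 37.8), the reverse of their order with FFA alone on this length. PEMT had 21.0 TPM, FADS2 11.9 TPM and FADS3 10.7 TPM.
The order depends on the length assigned to each gene. With the longest annotated transcript in place of all exon bases, FADS1 stood above ELOVL5 in the FFA library, and LPCAT3 stood above ELOVL5 in the FFA + 9-cis-RA library. MBOAT7 then stood above ELOVL2 in both libraries, so their order did not reverse. FADS2 and FADS3, which were close on all exon bases, then had 459 and 245 counts per kb in the FFA library.

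**Figure D3:**
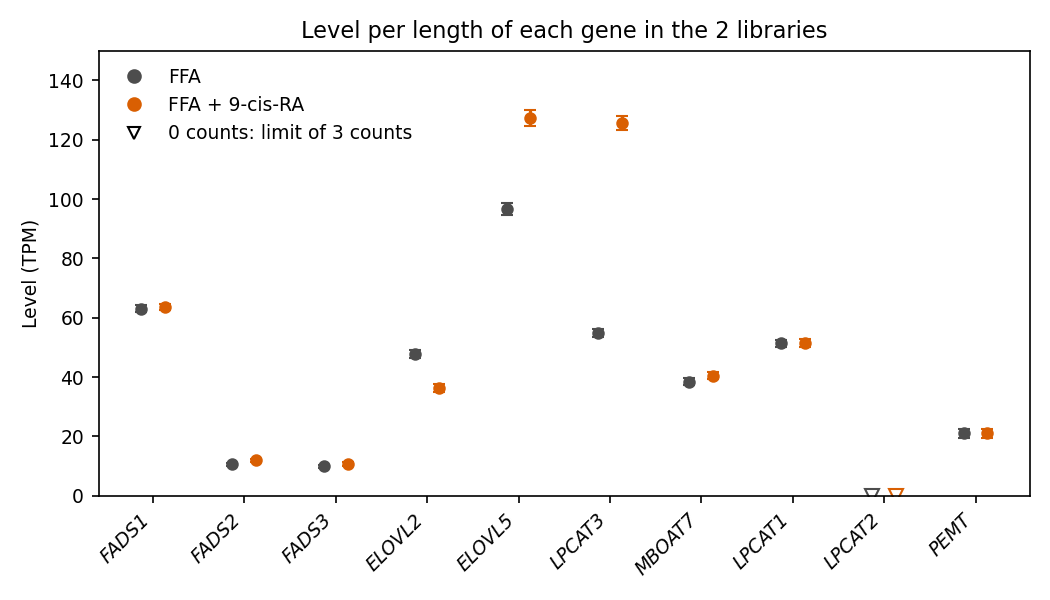
The level of each of the 10 genes (x axis) in TPM (y axis) is plotted for the FFA library (grey) and the FFA + 9-cis-RA library (orange) with bars for the 95% counting interval; open triangles mark the limit of 3 counts for LPCAT2, which had 0 counts. LPCAT3 goes from 54.9 to 126 TPM and reaches the level of ELOVL5, while ELOVL2 goes from 47.7 to 36.4 TPM.

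Summed over the acyltransferases of the set, the level was 145 TPM with FFA and 217 TPM with FFA + 9-cis-RA. LPCAT3 made up 37.9% of this sum with FFA and 57.7% with FFA + 9-cis-RA. The share of LPCAT1 was 35.5% and 23.7%, and that of MBOAT7 26.5% and 18.6%, although their own levels were 51.4 and 51.4 TPM and 38.4 and 40.5 TPM. These sums and shares use all exon bases as the length. With the longest annotated transcript, MBOAT7 stood above LPCAT1 in both libraries.
The elongases summed to 144 and 164 TPM, with ELOVL5 at 66.9% and 77.8% of the sum. The desaturases summed to 83.5 and 86.2 TPM, and FADS1 gave 75.6% and 73.8% of it. Differences of these sums between libraries also depend on TPM as the scale, which moved the median log2 fold change of all genes up by 0.090. On the median-of-ratios scale FADS1 was lower with FFA + 9-cis-RA, at -0.078. The shares within a library do not depend on this scale.

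**Figure D4:**
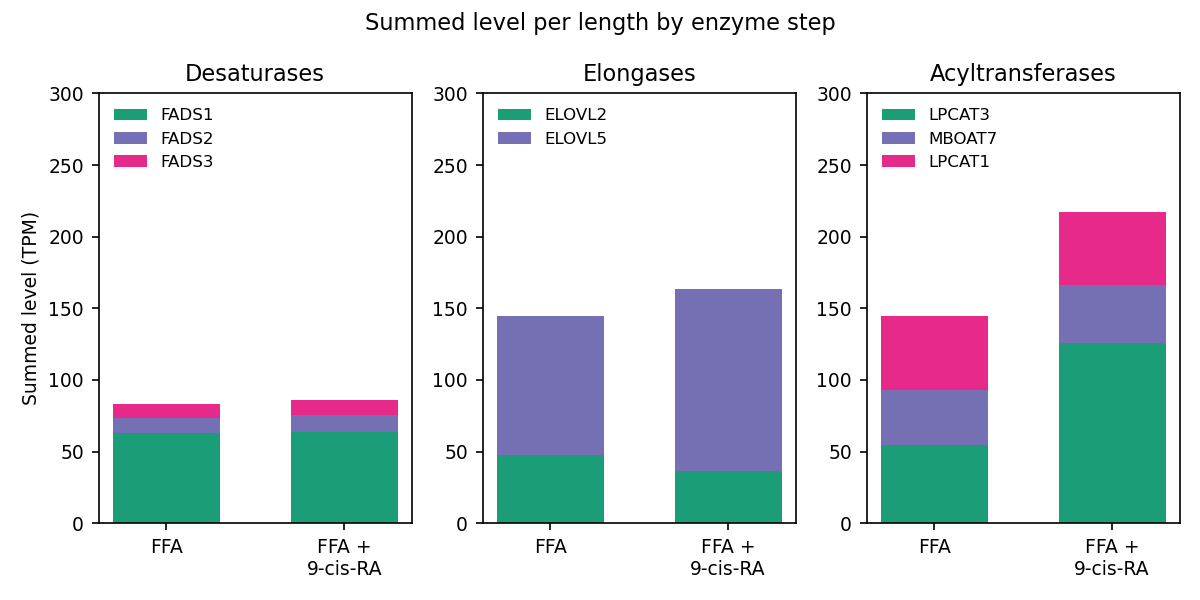
Stacked bars show the summed level in TPM (y axis, from 0) of the desaturases, the elongases and the acyltransferases of the set in the FFA and FFA + 9-cis-RA libraries (x axis), with 1 colour per gene and 1 library per bar. The acyltransferase bar grows from 145 to 217 TPM through its LPCAT3 part, and the desaturase bars differ little at 83.5 and 86.2 TPM.

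The genes that lie next to these on the chromosome, taken as the nearest on each side that reached a normalized count of 100 with either treatment, are given beside them. C1S, next to LPCAT3, had a log2 fold change of -0.010. Beside the FADS genes, FEN1 had -0.045 and RAB3IL1 had -0.76. Next to ELOVL2, TMEM14B had -0.059 and SMIM13 had 0.27, and next to ELOVL5, FBXO9 had -0.065 and GCLC had 0.077.
MBOAT7 had TMC4 at -0.020 and TSEN34 at -0.18 beside it, and PEMT had RASD1 at -0.57 and RAI1 at 0.11. For LPCAT1 the neighbours were ENSG00000286388 at 0.36 and SDHAP3 at 0.30, a pseudogene whose counts are uncertain because it resembles SDHA. LPCAT2, at 0 counts, lies between CRNDE at -0.40 and CES1 at 0.61.

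The rest of the pathway was described by 9 lists of 76 genes, of which 67 could be compared. Their median log2 fold change was 0.034, with 2 genes above 1 (2.99%) and 3 below -1 (4.48%), near the 3.37% and 4.9% of all compared genes. The counting interval lay above 0 for 31 genes and below 0 for 26, or 46.3% and 38.8% of those compared. The same shares were 22.5% and 25.7% over all genes and 35.8% and 35.4% over well-counted genes.
Among 11 regulators of these enzymes, SREBF1, the transcription factor gene that drives fatty acid and PUFA synthesis enzymes, had 3282 and 9232 counts and the highest value, a log2 fold change of 1.52. The lowest was INSIG2, a sterol-sensing retention factor, at -0.51. The LXR genes NR1H3 and NR1H2 had -0.026 and -0.21, RXRA had -0.44 and RXRB had 0.30. INSIG1, the paralogue of INSIG2, was listed at 0 counts in both libraries. In all, 5 of the 10 compared regulators were higher and 5 lower, with a median of 0.061.

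In the list of 8 other desaturases and elongases, 6 were compared. The highest was SCD, which makes monounsaturated fatty acids, at 0.83. The lowest that reached a normalized count of 100 was FADS6, a desaturase-like gene, which had 120 and 26 counts and a log2 fold change of -2.14 (95% interval -2.85 to -1.56). ELOVL6, which extends saturated chains, had -0.37, and ELOVL1 had 0.10.
The 5 compared enzymes of the shared elongation cycle, which complete each round begun by an elongase, had a median of 0.065. The counting interval lay above 0 for 4 of them, with TECR, the final reductase, the highest at 0.32, close to ELOVL5. The lowest was HSD17B12 at 0.0025, and its interval held 0.
Of 5 long-chain acyl-CoA synthetases, which activate fatty acids, 4 were higher and 1 was lower. ACSL3, found on lipid droplets, had 5459 and 9668 counts and a log2 fold change of 0.85. ACSL4, which favours arachidonic acid, had 0.17, and ACSL6 had -1.10 on 254 and 116 counts.
The 7 compared genes of the peroxisomal steps that finish docosahexaenoic acid had a median of -0.094, with 2 higher and 5 lower. The thiolase ACAA1 was the lowest at -0.46.

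Other acyltransferases of the lysophospholipid and lysophosphatidic acid steps had a median of 0.011 over 9 compared genes. Of those that reached a normalized count of 100, AGPAT2 was the highest at 0.20 and AGPAT5 the lowest at -0.19, so none of them reached the value of LPCAT3. MBOAT1 and MBOAT2, relatives of MBOAT7, had at most 1 count.
Phospholipases of the A2 type and related lipases, which free the acyl chain in the Lands cycle, had a median of -0.12, with 4 higher and 5 lower of 9 compared. The median was 0.011 when at least 50 counts were required. PNPLA8 was the highest that reached a normalized count of 100, at 0.45. The lowest was PLA2G2A, a secreted phospholipase, with 70674 and 47668 counts and a log2 fold change of -0.54.
The 10 genes of the CDP-choline and CDP-ethanolamine pathway had a median of -0.0053, with 5 higher and 5 lower. ETNK1 was the highest at 0.27 and PCYT1B, which encodes an enzyme that makes CDP-choline, the lowest at -0.57. The 6 genes of phosphatidylserine and phosphatidylinositol synthesis had a median of 0.034, from PISD at -0.23 to CDS2 at 0.28.

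**Figure D5:**
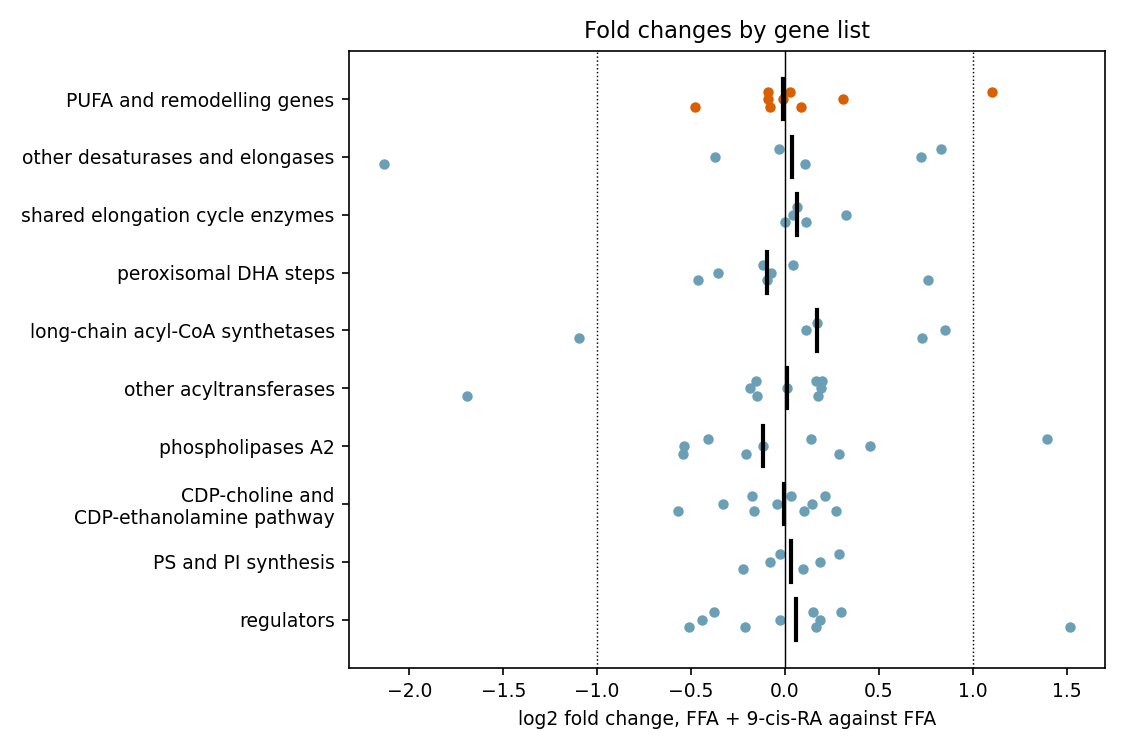
Each point is the log2 fold change (x axis) of 1 compared gene, grouped by list (y axis; points are offset vertically for legibility), with a black bar at the median of the list and dotted lines at -1 and 1. The medians lie between -0.12 and 0.17, and LPCAT3 at 1.10 and SREBF1 at 1.52 are the genes with over 1000 counts in each library that lie past 1.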

How the data were processed

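RNA sequencing of 2 HepG2 libraries, FFA and FFA + 9-cis-RA, was analysed from the tables the authors deposited, which hold raw fragment counts per gene. Per the file headers these were made with featureCounts version 2.0.1 on the reverse strand (setting 2) from pairs with both ends mapped, and reads mapping to several places or genes were not counted, which lowers counts of overlapping genes. The submitters' processing notes name GRCh38 and DESeq2. The aligner and annotation release were not given in the sources used here. The study's test by DESeq2 cannot be fitted with 1 library per group.

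Counts were scaled with DESeq2 version 1.42.0 size factors in R version 4.3.3. Log2 fold changes used a pseudocount of 1, which understates changes of low counts, for genes whose counts summed to 10 or more. Exact intervals used scipy 1.17.1 in Python 3.11.15, and trends used statsmodels 0.14.6 (span 0.3). TPM values were computed from the counts and the exon length in the files. Transcript lengths came from GENCODE 29. Alternatives included TMM factors from edgeR version 4.0.16. The fold change and interval steps were tested on simulated data that held counting error alone and a known scaling. That simulation did not cover the size factors or variation between cultures. Counts of fragments without molecular identifiers make intervals and limits cover counting error alone.

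The genes and lists were chosen with earlier results of these data known. The genes named are the 10 of the set, the highest and lowest of each list that reach a normalized count of 100, and the nearest such neighbours. Further genes of the lists were picked as examples with their values in view. Of the genes this rule names, 1 is not reported here.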

Additional observations from a re-analysis of the deposited data

How the results depend on the processing

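Under TMM, total-count and TPM scaling (the last chosen after seeing the data), pseudocounts of 0.1 and 5, no filter or at least 50 counts, protein-coding genes alone, the whole interval past 1, and removal of the trends on expression and length, LPCAT3 was the 1 gene of the set above 1 and 0 were below -1. Its log2 fold change ran from 1.10 to 1.19, that of ELOVL5 from 0.31 to 0.40 and that of ELOVL2 from -0.49 to -0.39. MBOAT7 changed sign in 3 of 9 alternatives, PEMT in 2, and FADS1 and LPCAT1 in 1 each. Ratios within a library stayed inside their counting intervals. With the longest annotated transcript, 5 of the 10 genes kept their place in the order of levels with FFA and 6 with FFA + 9-cis-RA.

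Over all genes, 689 were above 1 and 1002 below -1. A pseudocount of 5 gave 341 and 594, no filter 3771 and 2493, at least 50 counts 153 and 361, the whole interval 79 and 190, and protein-coding genes 270 and 451. With TPM scaling the median of the set was 0.077, and the medians were 0.13 for other desaturases and elongases, 0.16 for shared elongation enzymes, -0.0039 for peroxisomal steps, 0.26 for acyl-CoA synthetases, 0.10 for other acyltransferases, 0.085 for the CDP-choline and CDP-ethanolamine pathway, 0.12 for phosphatidylserine and phosphatidylinositol synthesis and 0.15 for regulators. With total counts, shared elongation enzymes were at 0.11, acyl-CoA synthetases at 0.22 and other acyltransferases at 0.060. Acyl-CoA synthetases were at 0.21 without the expression trend, and other acyltransferases at 0.087 both with no filter and with at least 50 counts. The median of phospholipases A2 turned from -0.12 to 0.011 with at least 50 counts. Medians near 0 also turned: that of the set with TMM (0.0067), total counts (0.036), the length trend removed (0.010) and TPM, that of other acyltransferases with the length trend removed (-0.018), and that of the CDP-choline and CDP-ethanolamine pathway with TMM (0.015), total counts (0.044), the expression trend removed (0.0028) and TPM. No paired analysis was possible because each group has 1 library.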
